A study of Mus musculus with 28 samples.

Results

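Kinesins are the motor proteins that step along microtubules, and their RNA levels were followed in mouse embryonic fibroblasts (MEFs) after oxidative stress and after a DNA-damaging drug. Members were all genes whose symbol begins with Kif and a digit in the annotation of the array, each read at the probe set (a group of probes for 1 transcript) with the highest mean over the 28 arrays. This gave 37 of 17097 genes with a probe set of a single symbol, measured by 81 of the 45037 probe sets tested. The study asked how the response to oxidative stress depends on p53, a transcription factor activated by damage, and on p66, the redox protein of the Shc1 gene. MEFs were taken from 13.5-day-old embryos of WT, p53-/- and p66-/- mice and used at passage 2 by the labels. p53-/- and p66-/- MEFs each gave 4 arrays labelled H2O2 and 4 labelled untreated, p66-/- MEFs also gave 2 arrays after doxorubicin (Doxo), and WT MEFs gave 4 H2O2, 2 Doxo and 4 untreated arrays. H2O2 was given at 400 μM and Doxo, an intercalating inhibitor of topoisomerase II, at 0.25 μg/ml, each for 4 h. The mutant cells lack p53 or the p66 protein in every cell and from conception, so that a difference of genotype includes any change made before the treatment. Replicates are described by the study as independent preparations of cells. The labels give the strain as C57Bl/6, whereas the methods name another background strain.

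A kinesin turns ATP hydrolysis into movement or, in some families, into the dismantling of microtubule ends. In dividing cells kinesins push the spindle poles apart, position chromosomes and build the central spindle at which the cell is cleaved; between divisions other kinesins carry vesicles, mitochondria, endosomes and the building blocks of cilia. The mitotic genes among them are known to be transcribed mainly late in the cell cycle, whereas transport kinesins are used by dividing and resting cells alike. For the comparison, 12 members were classed as mitotic (Kif2b, Kif2c, Kif4, Kif11, Kif14, Kif15, Kif18a, Kif18b, Kif20a, Kif20b, Kif22 and Kif23) and 13 as transport kinesins (Kif1a, Kif1b, Kif1c, Kif3a, Kif3b, Kif3c, Kif5a, Kif5b, Kif5c, Kif13a, Kif13b, Kif16b and Kif17). The remaining 12 (Kif2a, Kif6, Kif7, Kif9, Kif12, Kif21a, Kif21b, Kif24, Kif26a, Kif26b, Kif27 and Kif28) have ciliary, neuronal, signalling or mixed roles. Mean log2 signals of 2 mitotic members (Kif2b and Kif14), 8 of the other kinesins and none of the transport kinesins lay below 4.41, the median of all probe set means, where a change in RNA is hard to see.

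Promoters of the mitotic and transport members are shown first, since the 2 classes differ there in a sequence word. The cell cycle genes homology region (CHR, the word TTTGAA) is an element through which genes of late cell cycle are held silent in resting cells, and CCAAT is the word bound by the factor NF-Y. Windows of 300 bases, 250 before and 50 after the annotated start, were available for 31 of the 37 genes (35 windows, GRCm38.p6 annotation of RefSeq). TTTGAA on either strand was present in 9 of 11 windows of mitotic kinesins (81.8%), in 1 of 12 windows of transport kinesins (8.33%) and in 2 of 12 windows of the other kinesins (16.7%), against 17.9% of all 32851 promoter windows. On the forward strand alone the shares were 54.5% for mitotic and 8.33% for transport kinesins, against 10.2% of all windows. The 2 mitotic windows without the word were those of Kif18a and Kif2b. CCAAT, again on either strand, was in 63.6% of the mitotic and 33.3% of the transport windows, against 37.4% of all windows, and in none of the 35 windows did the 2 words share a base. A match is a description of the letters and not a measured binding site. The windows of the 6 mitotic kinesins called after Doxo, of which that of Kif18a holds neither word, and, for contrast, of 2 transport kinesins that fell are printed here on the strand of the gene, with TTTGAA and CCAAT, or their reverse complements TTCAAA and ATTGG, in capitals.
Kif20b (chr19:34922108-34922407, plus strand): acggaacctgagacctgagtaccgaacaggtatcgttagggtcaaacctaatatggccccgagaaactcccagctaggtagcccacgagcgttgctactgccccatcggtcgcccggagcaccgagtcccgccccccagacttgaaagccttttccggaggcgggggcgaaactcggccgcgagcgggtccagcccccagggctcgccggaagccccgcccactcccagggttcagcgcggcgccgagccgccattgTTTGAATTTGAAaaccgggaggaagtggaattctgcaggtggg
Kif23 (chr9:61946750-61947049, minus strand): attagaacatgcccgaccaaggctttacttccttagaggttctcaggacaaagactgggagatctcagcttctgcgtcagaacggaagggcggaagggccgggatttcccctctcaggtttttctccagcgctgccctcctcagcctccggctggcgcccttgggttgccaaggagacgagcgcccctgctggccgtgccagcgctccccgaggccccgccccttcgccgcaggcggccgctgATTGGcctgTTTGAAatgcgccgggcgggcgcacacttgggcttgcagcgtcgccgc
Kif11 (chr19:37376132-37376431, plus strand): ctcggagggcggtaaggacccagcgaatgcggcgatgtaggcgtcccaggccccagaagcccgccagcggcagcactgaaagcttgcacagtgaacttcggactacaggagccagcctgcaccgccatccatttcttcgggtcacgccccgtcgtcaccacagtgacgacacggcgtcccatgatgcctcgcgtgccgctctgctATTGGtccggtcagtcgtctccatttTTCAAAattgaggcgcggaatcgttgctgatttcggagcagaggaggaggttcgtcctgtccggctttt
Kif4 (chrX:100625815-100626114, plus strand): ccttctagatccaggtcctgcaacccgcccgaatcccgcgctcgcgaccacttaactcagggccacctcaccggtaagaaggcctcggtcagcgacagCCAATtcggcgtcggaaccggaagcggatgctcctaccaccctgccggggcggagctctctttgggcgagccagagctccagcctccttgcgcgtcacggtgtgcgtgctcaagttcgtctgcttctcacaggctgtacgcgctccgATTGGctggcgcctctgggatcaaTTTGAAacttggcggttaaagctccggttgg
Kif18a (chr2:109280488-109280787, plus strand): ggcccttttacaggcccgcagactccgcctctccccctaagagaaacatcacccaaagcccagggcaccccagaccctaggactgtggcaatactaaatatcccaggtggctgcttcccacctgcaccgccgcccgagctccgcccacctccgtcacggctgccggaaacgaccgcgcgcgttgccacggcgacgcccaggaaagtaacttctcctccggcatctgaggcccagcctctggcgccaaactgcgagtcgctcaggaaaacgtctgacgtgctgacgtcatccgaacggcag
Kif18b (chr11:102925075-102925374, minus strand): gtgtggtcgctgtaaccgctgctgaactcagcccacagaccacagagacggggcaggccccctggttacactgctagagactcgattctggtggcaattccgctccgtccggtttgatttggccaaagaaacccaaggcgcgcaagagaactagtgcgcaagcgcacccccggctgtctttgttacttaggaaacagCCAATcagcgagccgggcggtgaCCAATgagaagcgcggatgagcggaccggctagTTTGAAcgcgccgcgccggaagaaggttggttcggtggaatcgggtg
Kif1b, the downstream one of its 2 annotated starts (chr4:149307649-149307948, minus strand): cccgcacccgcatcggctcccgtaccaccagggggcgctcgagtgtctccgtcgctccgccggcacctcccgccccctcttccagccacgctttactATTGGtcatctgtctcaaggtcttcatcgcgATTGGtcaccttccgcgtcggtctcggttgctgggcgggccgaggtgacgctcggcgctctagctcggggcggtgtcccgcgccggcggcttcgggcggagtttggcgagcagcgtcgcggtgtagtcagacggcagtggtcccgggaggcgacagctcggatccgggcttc
Kif3a (chr11:53567119-53567418, plus strand): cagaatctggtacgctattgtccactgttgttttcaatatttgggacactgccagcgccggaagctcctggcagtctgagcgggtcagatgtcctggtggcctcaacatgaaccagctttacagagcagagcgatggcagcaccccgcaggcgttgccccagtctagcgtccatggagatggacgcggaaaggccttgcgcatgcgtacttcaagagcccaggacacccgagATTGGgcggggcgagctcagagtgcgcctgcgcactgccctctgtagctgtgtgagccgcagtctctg

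Across the series, 3 facts bear on the kinesin values. The arrays fell into sets by the signal of the lys spike-in RNA (6 probe sets), which averaged 4.19 ± 0.16 on the Doxo arrays (SD, n = 4), 5.27 ± 0.28 on replicates 1 and 2 of the other groups (n = 12) and 3.59 ± 0.28 on replicates 3 and 4 (n = 12). The range of the Doxo arrays (4.036 to 4.414) met that of replicates 3 and 4 (3.24 to 4.042) at its edge, so these sets are not fully separate. Whether any untreated array was handled with the Doxo arrays is not given by the labels. Doxo and array set therefore cannot be told apart. Among p53-/- arrays the stress gene Atf3 averaged 5.98 on those labelled H2O2 and 8.88 on those labelled untreated, and Gadd45a 6.57 and 9.62, whereas in WT cells Atf3 averaged 8.65 after H2O2 and 5.79 untreated, and Gadd45a 9.90 and 6.69. The p53-/- arrays are therefore called by their labels, and the main results that use these labels are also given with the labels exchanged. Of 9 fibroblast markers, 8 to 9 lay above the median of their array in every group, with a mean level between 9.52 and 10.44, and of 4 endothelial markers 1 did. Epithelial (3 of 4), blood cell (3 to 4 of 4), neuronal (4 of 6) and skeletal muscle markers (2 to 4 of 4) were also above the array median. Their part in the kinesin values was not tested.

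After Doxo, some motors of each class fell in WT and in p66-/- MEFs, while others of the same class rose or were not called. The largest falls in both genotypes were those of the kinesin-1 heavy chain Kif5b, the microtubule depolymerase Kif2a, the division motor Kif20b and the transport motor Kif1b. In WT cells 21 of 37 members were called at an adjusted p under 0.05 (limma over all probe sets, Benjamini-Hochberg), 8 higher and 13 lower, where 35% of all probe sets were called, 21.9% higher and 13% lower. In p66-/- cells 23 were called, 9 higher and 14 lower, where 40.7% of all probe sets were called, 26.6% higher and 14.1% lower. All 13 members that fell in WT cells also fell in p66-/- cells (92.9% of the p66-/- list), and 6 of the 8 that rose did (66.7% of the p66-/- list). This overlap was not counted over all probe sets, so it may not be particular to kinesins. The median change over all probe sets was 0.13 in WT and 0.15 in p66-/- cells on the log2 scale. With that median subtracted before the test, the mitotic counts stayed at 1 higher and 5 lower in both genotypes, but none of the other kinesins was called higher. Cell type markers moved as well. Of 9 fibroblast markers, 3 fell and none rose in p66-/- cells and 2 fell and none rose in WT cells, with medians of -0.11 and -0.37 and the largest fall for the collagen gene Col1a2 (-2.23 and -2.52). The medians of epithelial markers were 0.68 and 0.43 (1 of 4 called higher in p66-/- cells and none in WT cells), and those of skeletal muscle markers 0.68 and 0.54 (likewise 1 of 4 and none). Of 4 blood cell markers measured, 1 rose and 1 fell in p66-/- cells and 1 rose in WT cells, and none of the endothelial or neuronal markers was called. Their part in the kinesin changes was not tested. Cells were measured in bulk, so that fewer cells of a kind and less RNA per cell cannot be told apart.

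**Figure D1:**
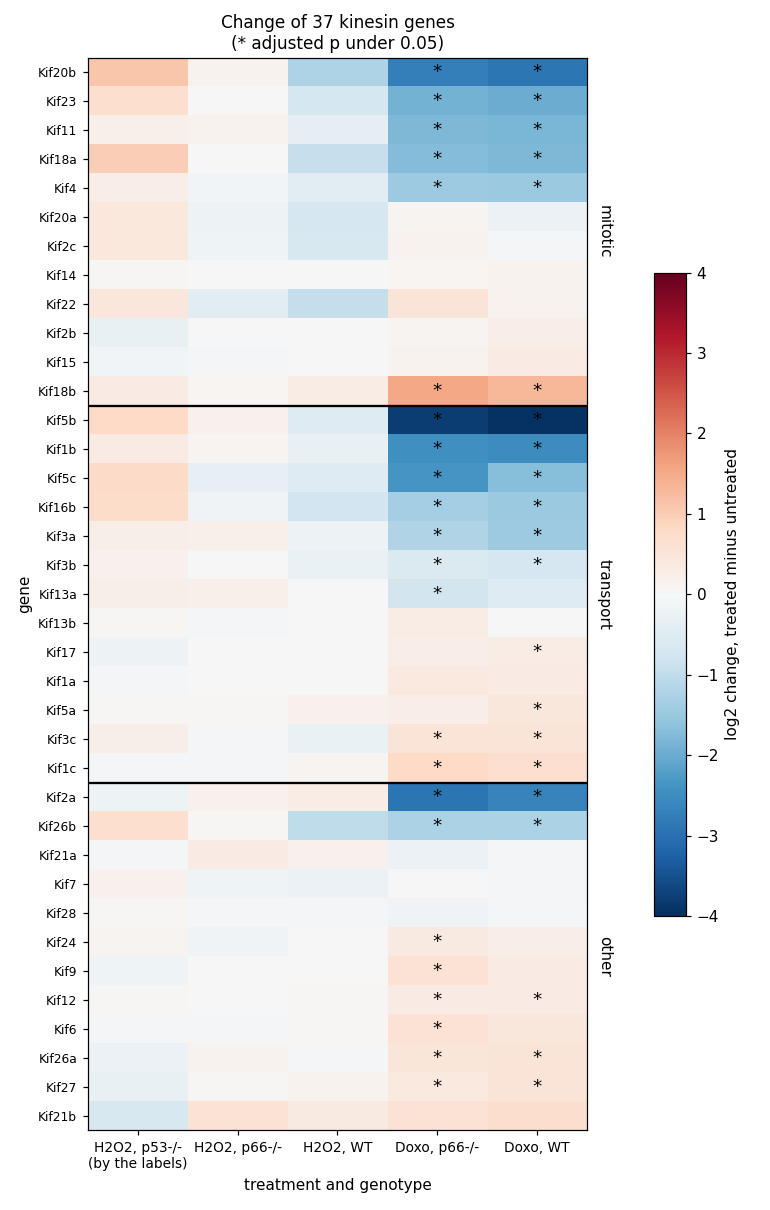
Log2 change of each of the 37 kinesin genes (rows, grouped as mitotic, transport and other and ordered by the change after Doxo in WT cells) in 5 treatment comparisons (columns), with a star where the adjusted p was under 0.05. The Doxo columns of both genotypes carry 21 and 23 stars, and the H2O2 columns carry none.

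Of the 12 mitotic kinesins, 5 fell and 1 rose in each genotype, and the other 6 were not called. Kif20b, a motor of late cytokinesis, had the largest fall of the class, with 3.47 and 3.49 on the Doxo arrays of p66-/- cells, against 6.95, 6.98, 5.48 and 5.41 untreated. In WT cells it measured 3.44 and 3.56 after Doxo, against 6.996, 6.61, 6.09 and 5.83 untreated. Every Doxo array lay below every untreated array, and the log2 change was -2.72 (SE 0.85, adjusted p = 0.0143) in p66-/- and -2.88 (SE 0.85, adjusted p = 0.012) in WT cells. Kif23, the motor subunit of centralspindlin at the spindle midzone, measured 3.99 and 4.18 after Doxo, against 5.93, 5.99, 5.95 and 5.98 in untreated p66-/- cells. In WT cells it was at 4.36 and 4.26 after Doxo, against 6.36, 6.01, 6.39 and 6.42 untreated. The groups did not overlap in either genotype, with changes of -1.88 (SE 0.39, adjusted p = 0.000733) in p66-/- and -1.99 (SE 0.39, adjusted p = 0.00052) in WT cells.

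Kif11 (Eg5) slides antiparallel spindle microtubules apart and thereby separates the poles. It gave 4.72 and 5.05 after Doxo, against 6.76, 6.9998, 6.43 and 6.47 in untreated p66-/- cells. The WT values were 4.61 and 5.15 after Doxo, against 6.82, 6.72, 6.65 and 6.66 untreated. All Doxo values were below all untreated values, and the gene fell, with a log2 change of -1.78 (SE 0.37, adjusted p = 0.000798) in p66-/- and -1.83 (SE 0.37, adjusted p = 0.000748) in WT cells. The other Kif11 probe set, with a lower mean, changed by -0.19 in WT cells and was not called. Kif4, a chromokinesin that binds chromosome arms and the midzone, measured 5.88 and 5.64 after Doxo, against 7.13, 7.17, 7.33 and 7.29 in untreated p66-/- cells. In WT cells the values were 6.01 and 5.86 after Doxo, against 7.40, 7.25, 7.49 and 7.49 untreated. The untreated arrays of this gene lay close together, and its change of -1.47 (adjusted p = 1.29e-05) in p66-/- and -1.47 (adjusted p = 1.47e-05) in WT cells had the lowest p of the class in both genotypes. Kif18a, which damps the oscillation of chromosomes at the spindle equator, changed by -1.73 and -1.80 (adjusted p = 0.0171 and 0.0161) in p66-/- and WT cells.

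Kif18b, a motor that limits the length of astral microtubules, was the only member of its class called higher. It measured 8.63 and 8.24 after Doxo, against 6.29, 6.70, 7.28 and 7.24 in untreated p66-/- cells, and 8.26 and 8.41 after Doxo, against 7.03, 6.93, 7.08 and 7.01 in untreated WT cells. Both pairs of groups stood apart, and the gene rose by 1.56 (SE 0.27, adjusted p = 0.000145) and 1.33 (SE 0.27, adjusted p = 0.000804). Kif20a, which brings the chromosomal passenger complex to the midzone, changed by 0.12 (95% interval -0.59 to 0.83) in p66-/- and -0.22 (-0.93 to 0.49) in WT cells. The chromokinesin Kif22 changed by 0.53 and 0.15, and Kif2c (MCAK), the depolymerase of centromeres, by 0.14 and -0.06. None of these 3 was called in either genotype, nor were Kif15, a motor that shares pole separation with Kif11, Kif14 and Kif2b. The class therefore split within itself, with a median change of 0.11 in p66-/- and -0.14 in WT cells. These medians include Kif14 and Kif2b, whose mean signals of 2.85 and 2.82 were so low that a fall would be hard to see. The p66-/- median was -0.11 without replicate 1 of the untreated cells and -0.10 without replicate 2 of the Doxo cells, and the WT median lay between -0.23 and -0.07 with single untreated WT arrays left out.

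**Figure D2:**
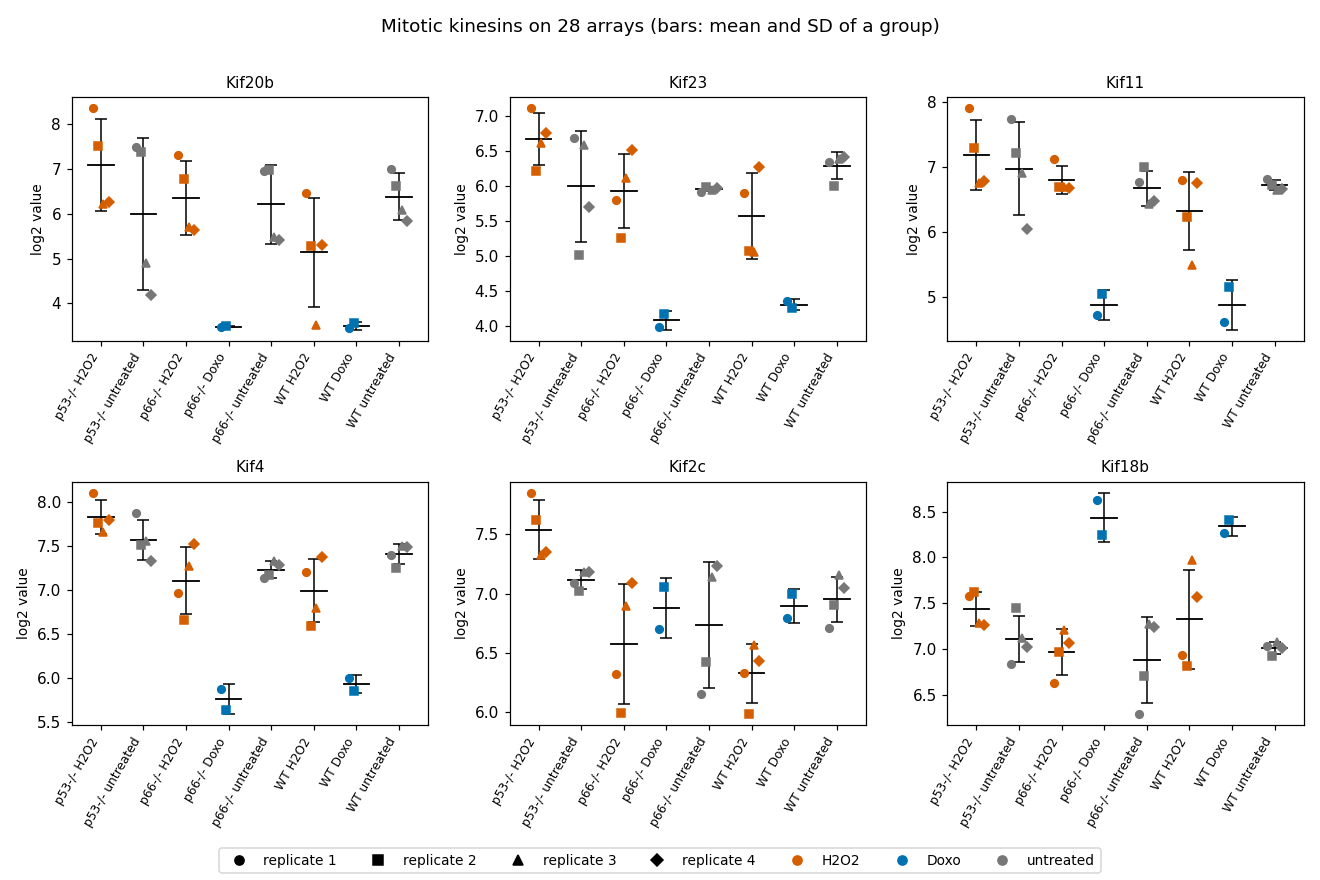
Log2 signal of 6 mitotic kinesins on each array (points; marker shapes are the replicate numbers) in the 8 groups, with the group mean and SD as bars (orange H2O2, blue Doxo, grey untreated). Kif23, Kif11 and Kif4 are lowest on the 4 Doxo arrays and Kif18b is highest there, and for Kif20b replicate 3 of WT H2O2 (3.53) lies among the Doxo values.

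The transport kinesins had the largest single fall of the family. Kif5b, the kinesin-1 heavy chain made in most tissues, measured 6.14 and 5.86 after Doxo, against 10.34, 10.49, 8.95 and 9.35 in untreated p66-/- cells. In WT cells it was at 6.005 and 5.58 after Doxo, against 10.39, 9.86, 9.56 and 9.23 untreated. The gap between the groups exceeded 2 log2 units in both genotypes, for changes of -3.78 (SE 0.71, adjusted p = 0.000304) in p66-/- and -3.97 (SE 0.71, adjusted p = 0.000223) in WT cells, or 13.8-fold and 15.6-fold lower. All 5 Kif5b probe sets were called lower in WT cells, by -2.38 to -3.97. Over the whole family, 15 of the 44 probe sets not chosen were called in WT cells, where 35% of all probe sets were. For 13 of them the chosen probe set was called with the same sign, and for 0 with the opposite sign. Kif5c, a heavy chain best known from neurons, measured 4.60 and 4.32 after Doxo, against 6.90, 7.13, 6.61 and 6.63 in untreated p66-/- cells. In WT cells it gave 4.93 and 4.78 after Doxo, against 6.58, 6.71, 6.44 and 6.44 untreated. The groups did not overlap, and the changes were -2.36 (SE 0.49, adjusted p = 0.00077) and -1.69 (SE 0.49, adjusted p = 0.0109). The third heavy chain, Kif5a, rose by 0.44 in WT cells (adjusted p = 0.00374) and changed by 0.25 in p66-/- cells (adjusted p = 0.0667).

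Kif1b, a kinesin-3 carrier of mitochondria and of synaptic vesicle precursors, measured 5.33 and 5.55 after Doxo, against 8.40, 8.29, 7.46 and 7.37 in untreated p66-/- cells. In WT cells the values were 5.79 and 5.08 after Doxo, against 8.16, 7.98, 7.91 and 7.71 untreated. Its changes of -2.44 (SE 0.32, adjusted p = 6.34e-06) and -2.50 (SE 0.32, adjusted p = 5.89e-06) had the lowest p of the transport class. The 5 probe sets of Kif1b differed in size, with -2.50 at the chosen one and -1.01, -1.04, 0.20 and 0.28 at the others in WT cells. Kif16b, which moves early endosomes, fell, with log2 changes of -1.36 and -1.49 in p66-/- and WT cells (adjusted p = 0.00199 and 0.00112), and Kif13a, a carrier of vesicles from the trans-Golgi, fell in p66-/- cells, by a change of -0.74 (adjusted p = 0.00753) with -0.53 in WT cells (adjusted p = 0.0511).

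The 2 obligate partners of heterotrimeric kinesin-2, the motor of transport into cilia, both fell. Kif3a measured 4.90 and 5.18 after Doxo, against 6.23, 6.68, 6.16 and 5.96 in untreated p66-/- cells, and 4.79 and 5.15 after Doxo, against 6.63, 6.53, 6.22 and 6.33 in untreated WT cells. Its changes were -1.22 (SE 0.29, adjusted p = 0.00215) and -1.46 (SE 0.29, adjusted p = 0.000558). Kif3b measured 5.52 and 5.34 after Doxo, against 5.97, 6.16, 5.99 and 5.87 in untreated p66-/- cells, and 5.27 and 5.53 after Doxo, against 6.08, 6.23, 6.01 and 5.99 in untreated WT cells. Its changes of -0.56 and -0.68 (adjusted p = 0.00109 and 0.000235) were smaller than those of Kif3a, and in both genes no Doxo value reached an untreated one. The cargo subunit of the same motor, Kifap3, fell as well (-1.23 and -1.46). Kif3c, which pairs with Kif3a in place of Kif3b, rose by 0.51 and 0.52 (adjusted p = 0.0044 and 0.0044), and Kif1c, a carrier of dense-core and integrin vesicles, by 0.80 and 0.67 (adjusted p = 0.0119 and 0.0336). Kif17, the homodimeric kinesin-2, rose in WT cells by 0.31 (adjusted p = 0.0326), with 0.26 in p66-/- cells (adjusted p = 0.0591). In all, 7 transport kinesins fell and 2 rose in p66-/- cells, and 6 fell and 4 rose in WT cells. With the median change of all probe sets subtracted, the WT split was 7 lower and 2 higher. Leaving out the second WT Doxo array, so that 1 remained, gave fewer calls among these members and among all probe sets alike. The class medians were -0.56 in p66-/- and -0.53 in WT cells, and the WT median was -0.14 without the second WT Doxo array.

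**Figure D3:**
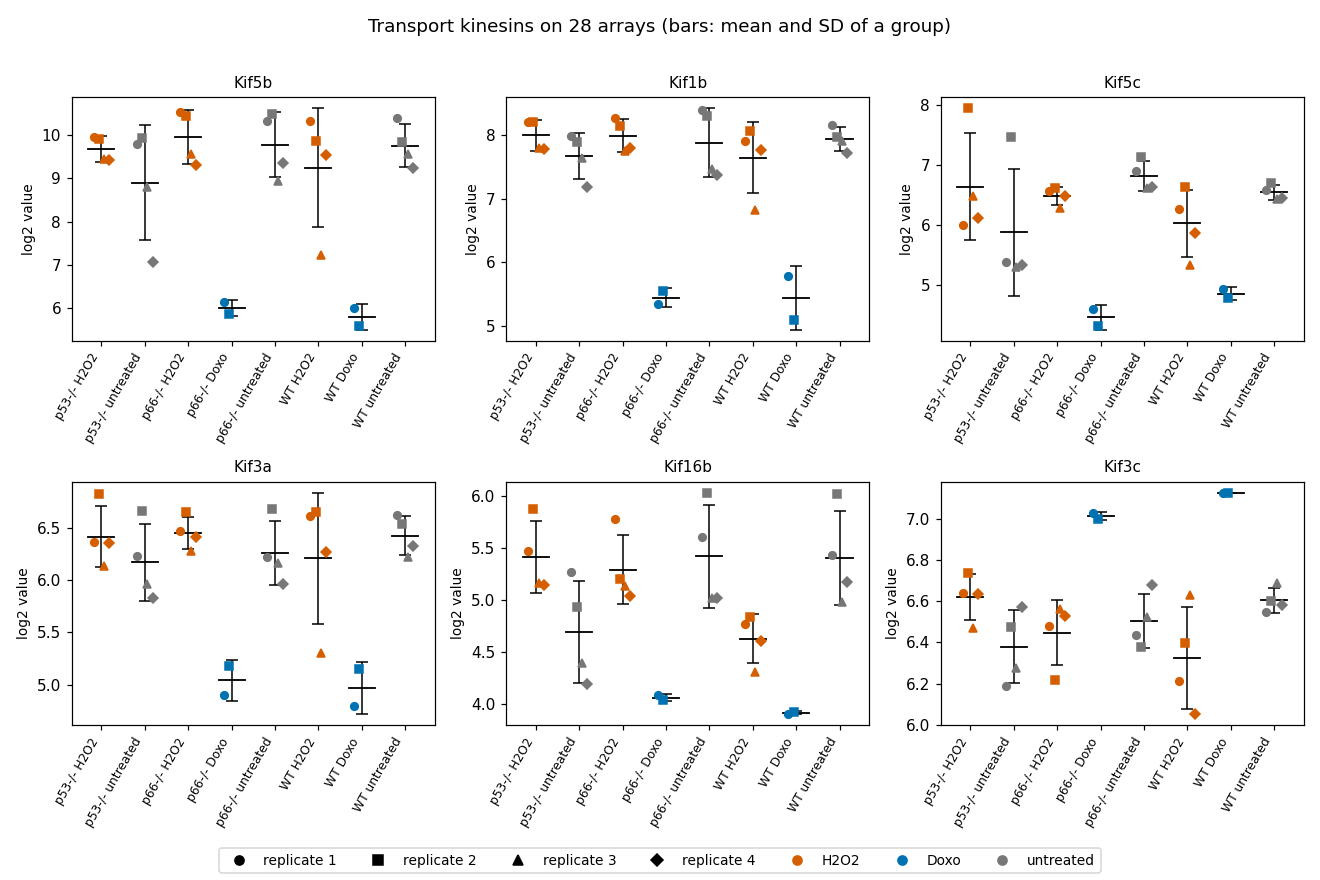
Log2 signal of 6 transport kinesins on each array (points; marker shapes are the replicate numbers) in the 8 groups, with the group mean and SD as bars (orange H2O2, blue Doxo, grey untreated). Kif5b, Kif1b, Kif5c, Kif3a and Kif16b are lowest on the Doxo arrays, where Kif3c is highest, and replicate 3 of WT H2O2 is low for Kif5b (7.23) and Kif1b (6.82).

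Among the other kinesins, Kif2a, a depolymerase that acts at spindle poles and in growing neurites, measured 5.18 and 5.03 after Doxo, against 8.58, 8.19, 7.71 and 7.64 in untreated p66-/- cells. In WT cells it measured 5.30 and 5.08 after Doxo, against 8.14, 7.77, 7.86 and 7.72 untreated. Over 2 log2 units separated the groups, and the changes of -2.92 (SE 0.35, adjusted p = 2.21e-06) and -2.68 (SE 0.35, adjusted p = 6.88e-06) were exceeded in size only by that of Kif5b in p66-/- cells and by those of Kif5b and Kif20b in WT cells. Kif26b, an atypical kinesin of Wnt5a signalling, fell too, with changes of -1.27 and -1.28 (adjusted p = 0.0138 and 0.0156). The low-signal members Kif12, Kif26a and Kif27 were called higher in both genotypes, and Kif6, Kif9 and Kif24 in p66-/- cells alone. Those calls were not made once the median change of all probe sets was subtracted. Without the second WT Doxo array, where fewer of all probe sets were called, neither these members nor Kif26b were called in WT cells. Kif7, the kinesin of the Hedgehog pathway at the ciliary tip, changed by 0.00 and -0.07 and was not called.

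The response of p66-/- cells to Doxo was set against that of WT cells in a direct test of the difference. None of the 37 members was called, as was none of the 45037 probe sets (0%), and none of the members had an unadjusted p under 0.05, where 2.39% of all probe sets did. The difference was widest for Kif5c, at -0.67 (95% interval -2.10 to 0.76), so that effects of this size in either direction could have gone unseen. The 3 members with the lowest p were Kif13b, a motor of vesicle traffic (0.29, -0.09 to 0.67), Kif5a (-0.19, -0.50 to 0.13) and Kif9, a kinesin of motile cilia (0.26, -0.22 to 0.74). Kif13b measured 5.99 and 5.74 after Doxo, against 5.38, 5.71, 5.62 and 5.58 in untreated p66-/- cells. In WT cells it measured 5.60 and 5.72 after Doxo, against 5.76, 5.81, 5.49 and 5.56 untreated. The Doxo values of p66-/- cells were above all of their untreated values, and those of WT cells lay within theirs. Kif5a gave 5.19 and 4.995 after Doxo, against 4.87, 4.69, 4.90 and 4.91 in untreated p66-/- cells, and 5.29 and 5.42 after Doxo, against 4.84, 4.94, 5.04 and 4.85 in untreated WT cells. Kif9 gave 4.30 and 4.60 after Doxo, against 3.77, 3.85, 3.65 and 4.21 in untreated p66-/- cells, and 4.22 and 4.38 after Doxo, against 3.92, 4.10, 3.95 and 3.93 in untreated WT cells. For both genes the Doxo arrays were above the untreated arrays in each genotype.

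**Figure D4:**
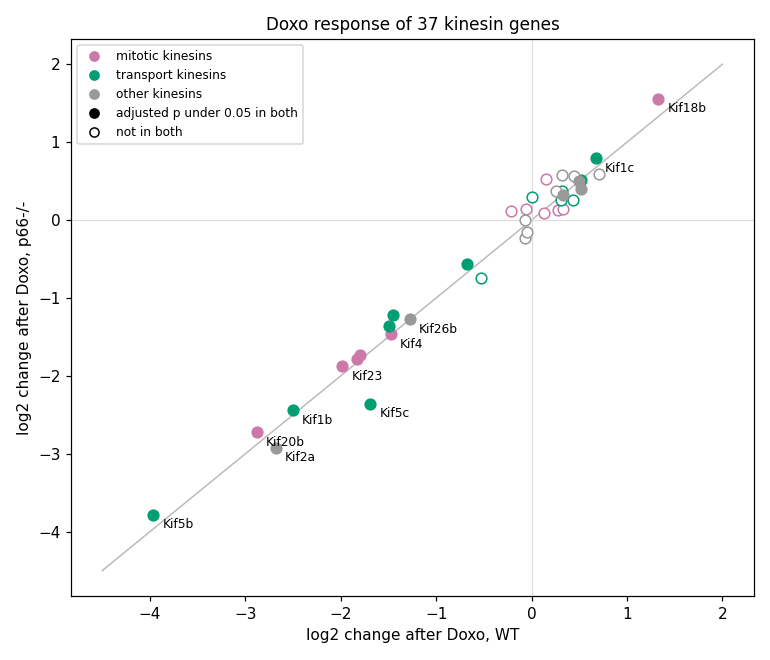
Log2 change after Doxo of the 37 kinesin genes in p66-/- cells (vertical axis) against WT cells (horizontal axis); filled points were called in both genotypes, and colours give the class. Kif5b lies farthest down in both (-3.78 in p66-/- and -3.97 in WT cells) and Kif18b farthest up (1.56 and 1.33).

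Genes that work with these motors were counted from lists chosen beside the kinesins. Of all probe sets, 14.1% were called lower and 26.6% higher after Doxo in p66-/- cells, and 13% and 21.9% in WT cells. Of 18 spindle and midzone partners, 9 fell and none rose after Doxo in each genotype, among them Bub1, the checkpoint kinase (-3.07 in p66-/- and -3.62 in WT cells), the ring protein Anln (-1.82 and -1.85) and the spindle protein Nusap1 (-1.58 and -2.02). Of 8 proliferation markers 2 fell, Mki67 (-2.91 and -3.35) and Top2a (-1.42 and -1.67), and the replication helicase subunit Mcm5 rose (1.14 and 0.91). Of 11 cargo adaptors and light chains measured, 3 fell and 5 rose in p66-/- cells, and 3 fell and 3 rose in WT cells. The kinesin light chain Klc4 rose most (1.51 and 1.27), and the mitochondrial adaptor Trak2 (-1.64 and -1.40) and Kidins220 (-1.19 and -1.41) fell beside Kifap3. Among 4 kinesins whose symbols lie outside the pattern, the minus-end motor Kifc2 rose (0.59 and 0.80), and the kinetochore motor Cenpe fell in WT cells (-1.97) with -1.31 in p66-/- cells (not called).

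After H2O2, none of the 37 members passed the test in WT cells, where 3.66% of all probe sets did, although 9 of the 12 mitotic kinesins had negative values. By class the median change was -0.52 for mitotic, -0.22 for transport and 0.02 for the other kinesins, beside 0.02 over all probe sets. At an unadjusted p under 0.05 there were 9 members, where 12.4% of all probe sets were. With the thresholds of the study (1.5-fold, with p under 0.05 before adjustment), 4 mitotic kinesins were lower, Kif22 (-0.95), Kif23 (-0.72), Kif20a (-0.68) and Kif2c (-0.63), beside Kif16b and Kif26b, where 2.59% of all probe sets were lower by this rule. The lowest p belonged to Kif26b, which measured 7.98, 7.39, 7.002 and 7.91 after H2O2, against 8.78, 9.13, 7.82 and 8.66 untreated. The groups overlapped only through untreated replicate 3 (7.82), for a change of -1.03 (SE 0.32, adjusted p = 0.0853). Kif16b measured 4.77, 4.83, 4.30 and 4.60 after H2O2, against 5.43, 6.02, 4.98 and 5.17 untreated, and Kif2c 6.33, 5.98, 6.56 and 6.43 after H2O2, against 6.71, 6.90, 7.15 and 7.05 untreated. Neither overlapped, with changes of -0.78 (SE 0.26, adjusted p = 0.118) and -0.63 (SE 0.23, adjusted p = 0.163). In all, 3 mitotic (Kif2c, Kif18a and Kif20a) and 2 transport members (Kif3b and Kif16b) had every H2O2 array below every untreated array, where 3.69% of all probe sets did.

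Arrays with the same replicate number deviated together, and a fit with the number as a block called 7 members lower after H2O2 in WT cells, where 6.95% of all probe sets were called and 3.63% were lower. These were the mitotic Kif18a (-0.94, adjusted p = 0.0098), Kif20a (-0.68, adjusted p = 0.0158), Kif20b (-1.24, adjusted p = 0.0338) and Kif22 (-0.95, adjusted p = 0.00927), the transport Kif3b (-0.26, adjusted p = 0.0431) and Kif16b (-0.78, adjusted p = 0.00225), and Kif26b (-1.03, adjusted p = 0.0451). Replicate 3 of WT H2O2 stood apart for kinesins that also fell after Doxo. Of the 13 members lower after Doxo in WT cells, 12 had their lowest WT H2O2 value on that array, with a median gap to the untreated WT mean of -1.21, against -0.15, -0.48 and -0.21 on replicates 1, 2 and 4. Kif20b was at 3.53 there, Kif5b at 7.23, Kif1b at 6.82 and Kif2a at 7.16. The same count was not made over all probe sets, so the pattern may not be particular to kinesins. Without replicate 3 of WT H2O2 the class medians were -0.45 for mitotic and -0.02 for transport kinesins. In that fit 1 of the 37 members, Kif3c, was called lower, where 3.53% of all probe sets were called. The difference between 3′ and 5′ control probe sets of Actb on this array was 0.28, within the range of 0.14 to 0.49 over all arrays.

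**Figure D5:**
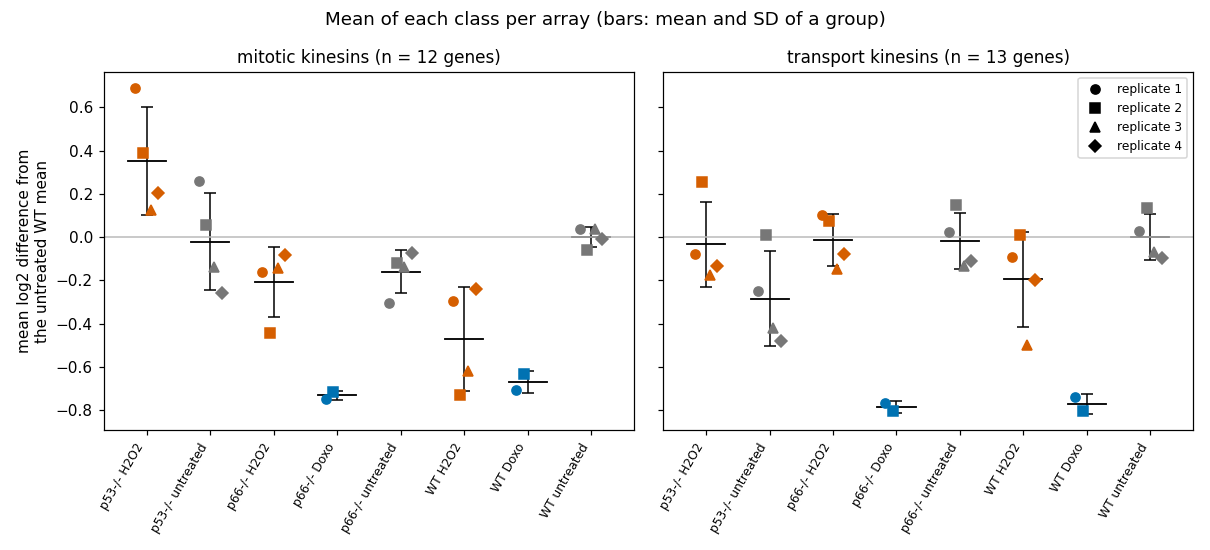
Mean over the 12 mitotic and over the 13 transport kinesins, per array (points; marker shapes are the replicate numbers), of the log2 difference from the untreated WT mean of each gene, in the 8 groups, with the group mean and SD as bars (orange H2O2, blue Doxo, grey untreated). The group means of both classes are lowest after Doxo, and that of the mitotic class is highest on the p53-/- arrays labelled H2O2 (0.35).

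The classes were compared over the 8 groups by averaging, on each array, the log2 difference of every member from its untreated WT mean. The mitotic class was at -0.73 ± 0.02 (SD, n = 2) in p66-/- and -0.67 ± 0.05 (n = 2) in WT cells after Doxo, and the transport class at -0.79 ± 0.03 and -0.77 ± 0.05. After H2O2 the mitotic class was at -0.47 ± 0.24 in WT cells and -0.21 ± 0.16 in p66-/- cells (n = 4 each), where untreated p66-/- cells were at -0.16 ± 0.10. The transport class was at -0.20 ± 0.22 in WT cells and -0.01 ± 0.12 in p66-/- cells after H2O2, beside -0.02 ± 0.13 in untreated p66-/- cells. On p53-/- arrays the mitotic class was at 0.35 ± 0.25 on those labelled H2O2 and -0.02 ± 0.23 on those labelled untreated, and the transport class at -0.03 ± 0.20 and -0.29 ± 0.22. The values are a description, without a test over the members.

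In p66-/- cells no member was called after H2O2, where 0.0178% of all probe sets were, and 1 member had an unadjusted p under 0.05 (4.41% of all probe sets). This was Kif21b, a neuronal kinesin that restrains microtubule growth, at 6.20, 7.05, 6.49 and 6.48 after H2O2, against 5.52, 6.38, 6.13 and 5.90 untreated, for a change of 0.57 (95% interval 0.07 to 1.08, adjusted p = 1). Its relative Kif21a gave 5.13, 4.95, 4.07 and 4.35 after H2O2, against 4.50, 4.45, 4.36 and 3.81 untreated (0.34, 95% interval -0.11 to 0.80), and Kif7 6.58, 6.43, 6.52 and 6.33 after H2O2, against 6.48, 6.64, 6.77 and 6.72 untreated (-0.19, -0.50 to 0.12). The groups overlapped for each of the 3 genes. The mitotic median was -0.02 in p66-/- cells. Set against the WT response, the median difference was 0.48 over the mitotic and 0.21 over the transport kinesins, with 0.26 for mitotic kinesins without replicate 1 of untreated p66-/- cells and 0.10 for transport kinesins without replicate 3 of WT H2O2, and none of the members was called in the test of the difference (0.00222% of all probe sets). Its lowest p values were those of Kif26b (1.09, 0.15 to 2.03), Kif3b (0.27, -0.02 to 0.56) and Kif16b (0.65, -0.11 to 1.40). Kif26b measured 8.49, 8.32, 8.35 and 8.42 in p66-/- cells after H2O2, against 7.28, 9.27, 8.53 and 8.26 untreated, a spread between untreated replicates wider than in any other group of this gene. Kif3b measured 5.97, 6.09, 5.96 and 6.04 after H2O2, against 5.97, 6.16, 5.99 and 5.87 in untreated p66-/- cells, and 5.92, 5.93, 5.57 and 5.86 after H2O2, against 6.08, 6.23, 6.01 and 5.99 in untreated WT cells. The groups overlapped in p66-/- cells and not in WT cells. Kif16b measured 5.78, 5.20, 5.14 and 5.04 after H2O2, against 5.61, 6.03, 5.02 and 5.01 in untreated p66-/- cells.

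Between p53-/- arrays labelled H2O2 and those labelled untreated, no member was called (4.56% of all probe sets), and the medians were 0.38 for mitotic and 0.24 for transport kinesins. The transport median was 0.13 without replicate 4 of the p53-/- arrays labelled untreated and 0.13 without replicate 2 of those labelled H2O2. Replicate 4 of those labelled untreated stood lowest of its group for 9 of the 13 members that were lower after Doxo in WT cells. The median gap of these members to the untreated WT mean was -0.76 on that array. This count, too, was not made over all probe sets. Exchanging the p53-/- labels turns every sign, with medians of -0.38 and -0.24. The lowest p values were those of Kif16b, at 5.47, 5.87, 5.16 and 5.14 on arrays labelled H2O2, against 5.26, 4.93, 4.39 and 4.19 on arrays labelled untreated (0.72, SE 0.26, adjusted p = 0.127), and of Kif21b, at 6.06, 6.12, 6.59 and 6.69 on arrays labelled H2O2, against 6.43, 6.98, 7.25 and 7.38 on arrays labelled untreated (-0.64, SE 0.24, adjusted p = 0.151). The low-signal Kif27 was at 3.07, 2.97, 3.33 and 3.35 on arrays labelled H2O2, against 3.63, 3.56, 3.31 and 3.43 on arrays labelled untreated (-0.30, SE 0.12, adjusted p = 0.161). The 2 sets of arrays overlapped for each of these genes. With the replicate number as a block, 3 members were called (9.17% of all probe sets), Kif16b (0.72, adjusted p = 0.00371) and Kif18a (0.995, adjusted p = 0.00563) higher and Kif21b (-0.64, adjusted p = 0.0296) lower by the labels.

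The test of p53-/- minus WT response to H2O2, by the labels, called 5 members higher, where 10.8% of all probe sets were called and 5.17% higher. They were Kif16b (1.495, SE 0.37, adjusted p = 0.00811), Kif26b (1.71, SE 0.45, adjusted p = 0.0148), Kif3c (0.52, SE 0.15, adjusted p = 0.0268), Kif2c (1.05, SE 0.32, adjusted p = 0.0351) and Kif23 (1.39, SE 0.45, adjusted p = 0.0468). Kif26b measured 7.87, 8.56, 8.62 and 8.44 on p53-/- arrays labelled H2O2, against 7.14, 8.15, 7.64 and 7.84 on those labelled untreated. Kif3c measured 6.64, 6.74, 6.47 and 6.64 on p53-/- arrays labelled H2O2, against 6.19, 6.48, 6.28 and 6.57 on those labelled untreated, and 6.22, 6.40, 6.63 and 6.05 in WT cells after H2O2, against 6.55, 6.60, 6.69 and 6.58 in untreated WT cells. Kif2c measured 7.85, 7.62, 7.32 and 7.35 on p53-/- arrays labelled H2O2, against 7.09, 7.02, 7.18 and 7.18 on those labelled untreated. On p53-/- arrays the 2 label groups stood apart for Kif2c and overlapped for Kif3c and Kif26b. With the p53-/- labels exchanged, no member was called (0.02% of all probe sets), and the same 5 values were 0.06, 0.35, 0.04, 0.21 and 0.04. The median difference over the mitotic kinesins was 0.86 with the labels as given and 0.15 once exchanged. With the replicate number as a block and the labels kept, 7 mitotic, 3 transport and 1 of the other kinesins were called higher. In that fit 1 of the other kinesins was lower (17.3% of all probe sets called, 8.56% higher). The block was not fitted with the labels exchanged, so these counts hold only for the labels as given.

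The difference between p53-/- and WT cells over their 8 untreated and H2O2 arrays each does not depend on which p53-/- arrays were treated. The test takes the 8 arrays of a genotype as independent. Same-numbered H2O2 and untreated arrays of a genotype deviated together (r 0.51 to 0.75), so its p-values may be too low. The replicate block takes out only what the genotypes share. Here 2 members were called, both mitotic and both higher in p53-/- cells, where 1.04% of all probe sets were called and 0.431% higher. Kif2c lay between 7.02 and 7.85 in p53-/- cells (median 7.25) and between 5.98 and 7.15 in WT cells (median 6.64), for a difference of 0.69 (SE 0.16, adjusted p = 0.0357). Kif4 lay between 7.33 and 8.10 in p53-/- cells (median 7.71) and between 6.60 and 7.49 in WT cells (median 7.31), for a difference of 0.50 (SE 0.12, adjusted p = 0.0414). In both genes every p53-/- array lay above the WT median, and the upper WT arrays reached into the p53-/- range. The class medians were 0.52 for mitotic and -0.03 for transport kinesins. With the replicate number as a block, 5 mitotic kinesins were called higher (Kif2c, Kif4, Kif18a, Kif20a and Kif22) and Kif21b beside them (4.23% of all probe sets), and leaving out single arrays moved the mitotic count between 0 and 2. Among the partner genes, the midzone bundling protein Prc1 was higher by 0.54 and Top2a by 0.55.

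Between p66-/- and WT cells, tested over 8 arrays each with the same limit, no member was called (0.00444% of all probe sets). The medians were -0.02 for mitotic and 0.04 for transport kinesins. The lowest p values were those of Kif26a, an atypical kinesin of enteric neuron development, at 3.29 to 4.03 in p66-/- cells (median 3.83), against 3.43 to 3.66 in WT cells (median 3.58, difference 0.20, 0.01 to 0.38). Kif5a lay at 4.69 to 4.97 in p66-/- cells (median 4.87), against 4.84 to 5.24 in WT cells (median 4.99, difference -0.14, -0.27 to -0.01). Kif16b lay at 5.01 to 6.03 in p66-/- cells (median 5.17), against 4.30 to 6.02 in WT cells (median 4.90, difference 0.34, -0.04 to 0.72). The ranges of the 2 genotypes overlapped for all 3 genes.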

How the data were processed

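RNA of 28 MEF samples was measured on MG-430 PM arrays. Before deposit the authors ran RMA in Partek 6.5 (submitters' notes), which leaves log2 values, used here as deposited. No depth applies to arrays, and their number limits the precision. Of 45141 probe sets, 104 controls were left out. Among the rest 28898 have 1 gene symbol, 551 several and 15588 none in the platform annotation. A kinesin gene was read at its probe set of highest mean (23 genes have several). One mean per group was fitted over all 28 arrays with limma 3.58.1 in R 4.3.3 (lmFit, eBayes), and p-values were adjusted over the 45037 probe sets (Benjamini-Hochberg, called under 0.05). p-values measure the spread between these samples.

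The members, classes and partner lists were chosen with earlier results of these data known. Values on every array are given, per comparison, for up to 8 called members of lowest p (4 for differences of response), and otherwise for the 3 of lowest p; other members are named where they lead or oppose their class. Kif23 in the p53-/- minus WT response, the array-wise look at members lower after Doxo and the gene span values were added after values were seen. The labels give shared replicate numbers without their meaning. Same-numbered arrays deviated together (H2O2 and untreated arrays of a genotype, 12 pairs, r 0.51 to 0.75, and mutant and WT arrays, r 0.24 to 0.70), so the number was also used as a block; Doxo arrays did not (r -0.08 to 0.05). Alternatives were the plain t-test of the methods, the study's thresholds, the compared groups alone, a filter, quantile normalization, centring, the replicate and array-set blocks, the mean of all probe sets, exchanged p53-/- labels, another reference and each array left out. For Doxo, subtraction of the median change and untreated references from a single array set were added after seeing the data. The script was tested on simulated data. Promoter windows were searched with Python 3.11.15. No other data of the study were analysed here.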

Additional observations from a re-analysis of the deposited data

Results flagged for a closer look

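Of 144 sets of 4 values checked (named genes and class means in the groups of 4 arrays), 5 held a value far from the other 3, and chance flags about 1 in 20. These were Kif7 on replicate 2 of the p53-/- arrays labelled H2O2 (7.31), Kif5c on replicate 2 of those labelled untreated (7.47), Kif11 on replicate 1 of p66-/- H2O2 (7.12), Kif9 on replicate 3 of WT H2O2 (4.17) and Kif23 on replicate 2 of untreated WT cells (6.01). The response to H2O2 by the labels differed between p53-/- and WT cells, in a test of the difference, for Kif16b (1.495), Kif23 (1.39), Kif26b (1.71), Kif2c (1.05) and Kif3c (0.52). With the p53-/- labels exchanged none of these differences was called.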

How the results depend on the processing

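Counts of called members are given as mitotic and transport kinesins. The replicate block called 6.95% of all probe sets for H2O2 in WT cells and 9.17% for p53-/- by the labels. It called 4.23% for p53-/- against WT and 17.3% for the p53-/- minus WT response. With replicates 3 and 4 alone these shares were, in the same order, 6.59%, 8.27%, 1.33% and 17%. With replicates 1 and 2 alone they were 0%, 0%, 2.04% and 1.37%. For most other settings the share over all probe sets is not given, so a change in a count may follow that share. After Doxo, every setting other than leaving out an array kept each count within 1.5 times its value (6 and 10 in WT, 6 and 9 in p66-/- cells). Leaving out single arrays gave 4 to 6 and 6 to 10 in WT cells (fewest without replicate 2 of WT Doxo), and 4 to 6 and 8 to 10 in p66-/- cells. For H2O2 in WT cells (0 and 0), the replicate block gave 4 and 2 and the array-set block 3 and 2. Replicates 3 and 4 alone gave 4 and 2, with 3 mitotic kinesins lower and Kif18b higher (0.73, adjusted p = 0.00852, limma). The study's thresholds gave 4 and 1, and single arrays left out 0 to 0 and 0 to 1. For p53-/- by the labels (0 and 0), the replicate block gave 1 and 1, the array-set block 1 and 1, replicates 3 and 4 alone 2 and 2, the study's thresholds 2 and 1, the mean of all probe sets 1 transport kinesin, and single arrays left out 0 to 0 and 0 to 1. For p53-/- against WT (2 mitotic), the replicate block gave 5, the array-set block 4, the compared groups alone 1, the methods' t-test 0, quantile normalization 0, and single arrays left out 0 to 2. For the p53-/- minus WT response (2 and 2), the replicate block gave 7 mitotic, the array-set block 6 mitotic, replicates 3 and 4 alone 5 mitotic, replicates 1 and 2 alone 0 transport, the study's thresholds 7 mitotic, the methods' t-test 1 mitotic, the compared groups alone 1 transport, quantile normalization 0 and 1, exchanged labels 0 and 0, and single arrays left out 0 to 3 and 1 to 4. In the other 4 comparisons all counts stayed at 0 with single arrays left out. Exchanged labels turned Kif16b to -0.72, Kif21b to 0.64 and Kif27 to 0.30 in p53-/- cells, and an untreated WT reference turned Kif21b to 0.45. Apart from the settings themselves, the cause was not tested. Low-signal members limit what can be seen. All Doxo values are limited by 2 Doxo arrays a genotype, whose treatment cannot be told apart from array set.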

Other observations

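Kinesin genes differ widely in the length of the gene, and this was set beside their change after Doxo as a description chosen after values were seen, without a test. Among the 27 kinesins above the median signal, 9 of the 13 whose gene spans more than 45.5 kb fell and none rose in p66-/- cells, and 8 fell and none rose in WT cells. Of the 14 with a span up to 45.5 kb, 5 fell and 3 rose in p66-/- cells, and 5 fell and 5 rose in WT cells. The median changes were -1.36 for longer and 0.13 for shorter genes in p66-/- cells, and -1.47 and -0.06 in WT cells. Across these kinesins the rank correlation of span with change was -0.35 in p66-/- and -0.28 in WT cells, beside -0.37 and -0.36 across 10932 genes above the median signal. The counts by span were not made over all genes, so the split may not be particular to kinesins. Genes share arrays and are not independent. After H2O2 the same correlation across kinesins was 0.22 in p66-/- and -0.07 in WT cells. Gene spans were taken from the RefSeq gene table.

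Outside the pattern, the minus-end motor Kifc3 was lower after H2O2 in WT cells by -0.78 (adjusted p = 0.0439, limma), and the light chain Klc4 was higher by 0.70 (adjusted p = 0.00388).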
